A study of Mus musculus with 48 samples.

Results

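Expression of 10 core circadian clock genes was followed mouse by mouse in the developing and ageing cortex of mice with a heterozygous loss of Chd8. The genes were taken by name from a table of 24444 genes, and all 10 were found: Arntl (also called Bmal1), Clock, Npas2, Per1, Per2, Per3, Cry1, Cry2, Nr1d1 and Dbp. RNA-seq had been carried out on the cortex of 48 male C57BL/6J mice aged E14.5, 1 month, 6 months or 12 months, with 6 wild type (WT) and 6 Chd8 V986*/+ (HET) mice per age. The V986* allele places stop codons within the coding sequence of Chd8, a chromatin remodeller. It is carried in the germline, so every cell of a HET mouse has it, and it goes back to a single founder male made by CRISPR/Cas9. WT mice were littermates, and the cortex of a single hemisphere was used for each mouse. The colony was kept under a 12:12 light to dark cycle. The hour of the day at which tissue was taken is not given in the sources used here, so the clock phase of a mouse is unknown and no rhythm was fitted.

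In the clock of mammalian cells, the proteins of Arntl and of Clock, or of its close relative Npas2, pair up and switch on genes that carry E-boxes. Among those genes are Per and Cry, whose proteins return to the nucleus and shut the pair off, and Nr1d1 (REV-ERBα), which represses Arntl. Dbp is an output gene of the same loop. In tissues sampled around the day, Dbp and Nr1d1 RNA run high when Arntl RNA runs low. The cortex keeps such a rhythm under the control of the hypothalamic pacemaker, and Per1 and Per2 also respond to neuronal activity and to glucocorticoids.

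The promoter windows below show where motifs of this loop lie in 4 of the genes whose values follow. They are the 250 bases before a RefSeq start site (build GRCm38.p6), written 5′ to 3′ on the strand of the gene. Capitals mark the E-box CACGTG and the related E-prime box CACGTT, which reads AACGTG on the opposite strand. They also mark the D-box to which Dbp binds, searched as TTATGTAA and as TTACGTAA. For the ROR element, read by Nr1d1, they mark the letters AGGTCA alone, searched without flanking bases. These letters appear as TGACCT on the opposite strand.
Per1, chr11:69098699-69098948, plus strand: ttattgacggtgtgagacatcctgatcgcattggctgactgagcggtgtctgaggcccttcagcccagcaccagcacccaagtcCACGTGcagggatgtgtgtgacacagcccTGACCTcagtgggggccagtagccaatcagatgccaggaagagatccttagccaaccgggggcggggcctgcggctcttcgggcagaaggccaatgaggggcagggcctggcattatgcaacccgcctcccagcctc
Cry1, chr10:85185055-85185304, minus strand: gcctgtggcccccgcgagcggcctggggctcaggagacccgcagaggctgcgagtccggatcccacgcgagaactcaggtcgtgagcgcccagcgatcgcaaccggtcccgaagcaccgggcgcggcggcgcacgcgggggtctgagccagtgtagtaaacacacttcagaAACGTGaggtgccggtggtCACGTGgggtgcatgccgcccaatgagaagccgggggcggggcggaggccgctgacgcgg
Per3, chr4:151044666-151044915, minus strand: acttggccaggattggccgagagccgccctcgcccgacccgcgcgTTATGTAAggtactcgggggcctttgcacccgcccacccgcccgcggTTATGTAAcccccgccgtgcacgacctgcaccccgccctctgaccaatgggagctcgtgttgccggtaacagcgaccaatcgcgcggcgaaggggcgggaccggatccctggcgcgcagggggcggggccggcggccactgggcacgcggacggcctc
Nr1d1, chr11:98775378-98775627, minus strand: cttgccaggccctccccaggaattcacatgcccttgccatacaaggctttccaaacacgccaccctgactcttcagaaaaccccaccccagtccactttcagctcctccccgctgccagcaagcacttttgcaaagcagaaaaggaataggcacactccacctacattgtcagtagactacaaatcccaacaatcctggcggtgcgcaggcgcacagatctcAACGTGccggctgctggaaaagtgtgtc

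Per3 held D-boxes that began at bases -205 and -158 from the start site. Per1 held an E-box at -166 and the ROR letters AGGTCA at -137. Cry1 held an E-prime box at -79 and an E-box at -60, and Nr1d1 an E-prime box at -28. Of 32851 RefSeq promoter windows of this length, an E-box was present in 6.02%, an E-prime box in 3.85% and a D-box in 0.931%. The letters AGGTCA were present in 14%, and both strands were read throughout. A further motif searched was the cyclic AMP response element TGACGT, present in 6.47% of all windows and, among the clock genes, at -132 from a second start site of Per1. No motif overlapped another in the clock gene windows. The 13 windows covered 9 of the 10 genes, all but Per2. The windows of Dbp, Arntl and Npas2 held none of these letters, which says nothing about sites elsewhere in those genes.

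The mutation and the tissue were checked first. Chd8 was lower in HET than in WT mice at every age, with a HET minus WT difference of -0.63 ± 0.08 (SE) in embryos and, in order of age, -0.67 ± 0.05, -0.64 ± 0.04 and -0.54 ± 0.06 after birth (limma adjusted p = 0.0261, 3.01e-06, 1.07e-07 and 0.00261). The values of WT and HET mice did not overlap at any age. All values here are on the variance-stabilized (VST) log2 scale, on which a difference comes close to a log2 fold change for well expressed genes and understates it for genes near the floor of 2.14. The scale is not adjusted for gene length, so levels are compared between mice and never between genes. Depth ran from 13611052 to 61621924 reads per library. Each of 6 cortex markers, among them Emx1 and Tbr1, stood at 8.0 or higher in all 48 mice. The mean of 35 markers of midbrain, hindbrain and spinal cord ran from 3.80 to 6.81 in WT and from 3.74 to 4.81 in HET embryos, with 6 and 16 of them near the floor.

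The largest change in the clock genes was developmental. Between E14.5 and 1 month, 9 of the 10 genes rose and Cry1 fell, in WT and in HET mice alike. Each of these genes passed the threshold used throughout, an adjusted p below 0.1. So did 85.7% of all genes tested in WT and 86.1% in HET mice. For the direction, 43.4% of all genes were called higher and 42.3% lower in WT (43.7% and 42.4% in HET). The median change of the 10 genes was 2.16 in WT and 2.28 in HET mice, against 0.02 in both for all genes tested. For the 9 genes that rose, every mouse of 1 month lay above every embryo, while Cry1 overlapped, and 68.5% and 69.4% of all genes tested were without overlap. In tissue pieces such as these, a change in the share of a cell type cannot be told apart from a change in RNA per cell. Markers of other cells moved over the same step: in WT mice the mean of 6 astrocyte markers ran from 7.93 to 8.43 in embryos and from 12.27 to 12.46 at 1 month, and that of 6 oligodendrocyte markers from 6.33 to 6.89 and from 13.77 to 14.18, with 0 of either list near the floor at either age. Their part in the rise of the clock genes was not tested.

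Among the activators, Npas2 changed most. In WT mice it ranged from 4.98 to 5.58 at E14.5 (median 5.17) and from 10.33 to 10.57 at 1 month (median 10.47). The increase was 5.22 ± 0.10 (SE, 6 against 6 mice) in WT and 5.29 ± 0.12 in HET mice (limma adjusted p = 2.23e-16 and 4.85e-16). Npas2 was thus near the low end of the scale in embryos, where the difference understates the fold change. Clock, whose protein fills the same place beside Arntl, was already well above the floor in embryos, at 10.05 to 10.32 in WT (median 10.23), and reached 11.81 to 12.04 (median 11.94). It rose by 1.72 ± 0.05 in WT and 1.76 ± 0.06 in HET mice (limma adjusted p = 6.66e-14 and 2.76e-14). Arntl, the partner that the loop cannot do without, rose by the smallest amount of the 3 activators. It went from 8.22 to 8.59 in WT embryos (median 8.48) to 9.76 to 9.98 (median 9.89), a change of 1.43 ± 0.07, with 1.32 ± 0.07 in HET mice.

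The repressors were split. The 3 Per genes rose, Per3 by 3.17 ± 0.11 in WT and 3.16 ± 0.10 in HET, Per2 by 2.11 ± 0.07 and 2.35 ± 0.12, and Per1 by 2.02 ± 0.09 and 1.91 ± 0.08. Cry2 rose by 2.20 ± 0.06 in WT and 2.20 ± 0.05 in HET mice. Its paralogue Cry1 went the other way. Cry1 ranged from 9.28 to 9.54 in WT embryos (median 9.48) and from 8.90 to 9.40 at 1 month (median 9.27). HET mice gave 9.35 to 9.54 (median 9.43) and 9.12 to 9.43 (median 9.20). The fall was -0.25 ± 0.09 in WT and -0.22 ± 0.06 in HET mice (limma adjusted p = 0.0157 and 0.00297), which makes Cry1 the member that changed least from embryo to adult.

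On this scale the output gene Dbp rose by more than any member but Npas2, and Nr1d1 rose by an amount close to that of Per3. Per3 lay nearer the floor in embryos, at 6.52 to 7.07 in WT, so Nr1d1 and Per3 are not ranked. Nr1d1 went from 8.06 to 8.29 in WT embryos (median 8.23) to 11.28 to 11.74 at 1 month (median 11.52), a change of 3.31 ± 0.08, with 3.24 ± 0.06 in HET mice. Dbp ranged from 6.48 to 6.79 in WT embryos (median 6.67) and from 10.34 to 10.61 at 1 month (median 10.47), a change of 3.81 ± 0.07. In HET mice Dbp changed by 3.64 ± 0.14 (limma adjusted p = 1.2e-16 in WT and 3.77e-13 in HET).

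**Figure D1:**
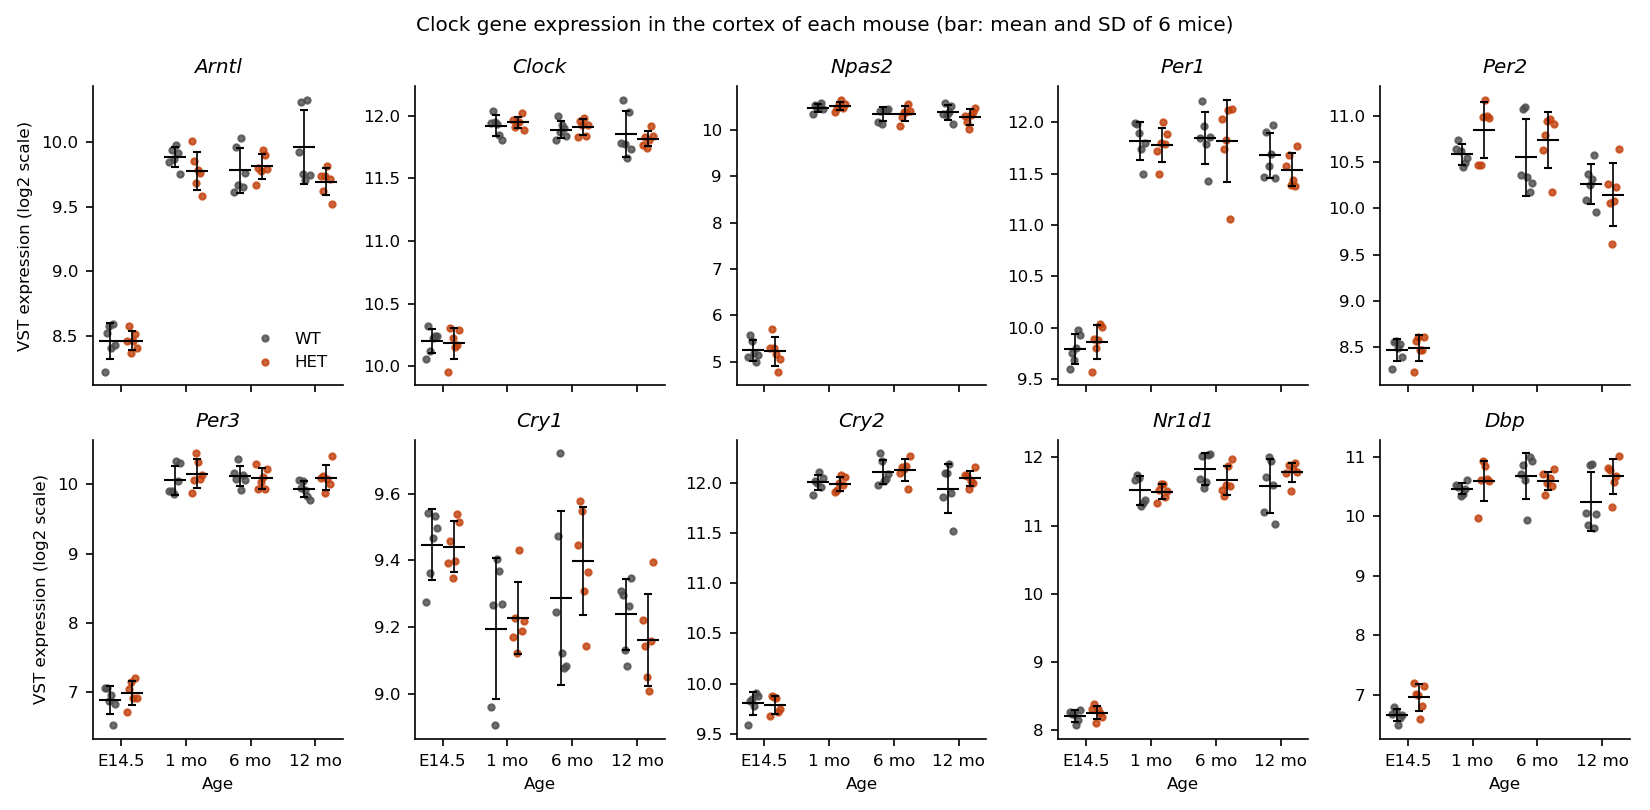
VST expression (log2 scale, vertical axes) of the 10 clock genes in each of the 48 mice, by age and genotype, with 1 point per mouse and a bar at each group mean. All genes but Cry1 sit lower at E14.5 than later, and the WT and HET points overlap for every gene at every age.

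A further 20 clock genes, listed with earlier results of these data known, gave a wider picture of the same step. In both genotypes the same 14 were called higher and the same 4 lower. Of all genes tested, 43.4% were called higher and 42.3% lower in WT (43.7% and 42.4% in HET mice). The median change of the 20 genes was 1.44 in WT and 1.35 in HET mice, against 0.02 in both for all genes tested. Among those that rose were Nr1d2, the paralogue of Nr1d1 (3.22 in WT and 3.23 in HET), Tef, a relative of Dbp (3.19 and 3.12), the Dbp relative Hlf, Ciart, a repressor of the Arntl and Clock pair (2.65 and 2.90), and Bhlhe41, another E-box repressor. The 4 that fell were singled out after their values were seen. They were Nfil3, which competes with Dbp for D-boxes (-1.29 and -1.59), the kinase genes Csnk1d (-0.87 and -0.88) and Csnk1e (-1.51 and -1.49), whose products mark PER proteins for turnover, and Timeless, which also works at DNA replication forks (-3.13 and -3.09).

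After 1 month the 10 genes changed little. From 1 to 6 months, Nr1d1 was the member called in WT mice, where 24.6% of all genes tested were called. It went from 11.28 to 11.74 (median 11.52) to 11.55 to 12.05 (median 11.85), and the groups overlapped. The increase was 0.31 ± 0.10 (limma adjusted p = 0.043). The call was lost without WT replicate 6 of 6 months (adjusted p = 0.102) and when no filter on low values was used (adjusted p = 0.156). In HET mice, where 26.8% of all genes were called, Cry2 rose by 0.14 ± 0.05 (adjusted p = 0.0538) and Npas2 fell by 0.17 ± 0.07 (limma adjusted p = 0.083). The Cry2 call was lost without replicate 1 or 2 of 1 month or replicate 4 or 6 of 6 months (adjusted p = 0.102 to 0.114). The Npas2 call was lost without replicate 3, 4 or 6 of 1 month or replicate 1, 2 or 4 of 6 months (adjusted p = 0.105 to 0.177). Dbp and Npas2 in WT, and Cry1 and Nr1d1 in HET mice, gained a call for this step when 1 mouse was left out: Dbp rose by 0.35 without WT replicate 4 of 6 months (adjusted p = 0.00225). Of the 20 further clock genes, 12 were called higher in WT and 11 in HET mice, 8 of them in both, and 0 were called lower. For comparison, 12.3% of all genes were called higher in WT and 14% in HET mice, with 12.3% and 12.8% called lower. Bhlhe41 rose by 0.58 in WT and 0.43 in HET mice.

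From 6 to 12 months, 0 of the 10 genes were called in WT mice, where 0.00579% of all genes tested were called and 1 member, Per3 (-0.19 ± 0.07), had an unadjusted p under 0.05, as had 6.75% of all genes. Per2 fell in HET mice, where 3.43% of all genes were called and 2.36% were called lower. Its values were 10.18 to 10.96 (median 10.86) in HET mice of 6 months and 9.61 to 10.64 (median 10.16) at 12 months, with overlap. The change was -0.59 ± 0.15 (limma adjusted p = 0.0554). The call was lost without replicate 2, 3 or 4 of 6 months or the same numbers of 12 months (adjusted p = 0.103 to 0.139). Without HET replicate 5 of 6 months, Per1 and Cry1 were called as well, at -0.43 and -0.29 (adjusted p = 0.0144 and 0.0462), and Cry1 also without replicate 6 of 12 months (adjusted p = 0.0665). In WT mice Per2 changed by -0.29 ± 0.15 (adjusted p = 0.724). The difference between the genotypes in this step was not past the threshold for Per2 or any other member. Of the 20 further clock genes, Bhlhe40 was called in HET mice, at -0.37 (adjusted p = 0.0788). It was singled out after its value was seen.

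The comparison of genotypes asks whether the loss of 1 copy of Chd8 shifts the clock genes at a given age. At no age did any of the 10 genes pass the threshold with limma. The share of all genes tested that passed was 0.00593% in embryos and 0.139%, 0.0927% and 0.0463% at 1, 6 and 12 months, so few genes of any kind were called. At 12 months the count over all genes depended on 1 mouse. It was 8 with all mice and 251 without WT replicate 3, against 2 to 16 without any other mouse. In none of these fits was a member called. No member had WT and HET values without overlap, which 0.261%, 0.825%, 0.527% and 0.868% of all genes had at the 4 ages. The median HET minus WT difference of the 10 genes was 0.01 in embryos, then 0.03, 0.02 and -0.06 at the 3 postnatal ages, and that of all genes was 0.00 at each age. At an unadjusted p under 0.05, 1, 1, 0 and 2 of the 10 genes were past the mark at the 4 ages, against 4.56%, 8.80%, 7.59% and 11.6% of all genes. Of the 20 further clock genes, 0 were called at any age, and 1, 1, 1 and 3 had an unadjusted p under 0.05.

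**Figure D2:**
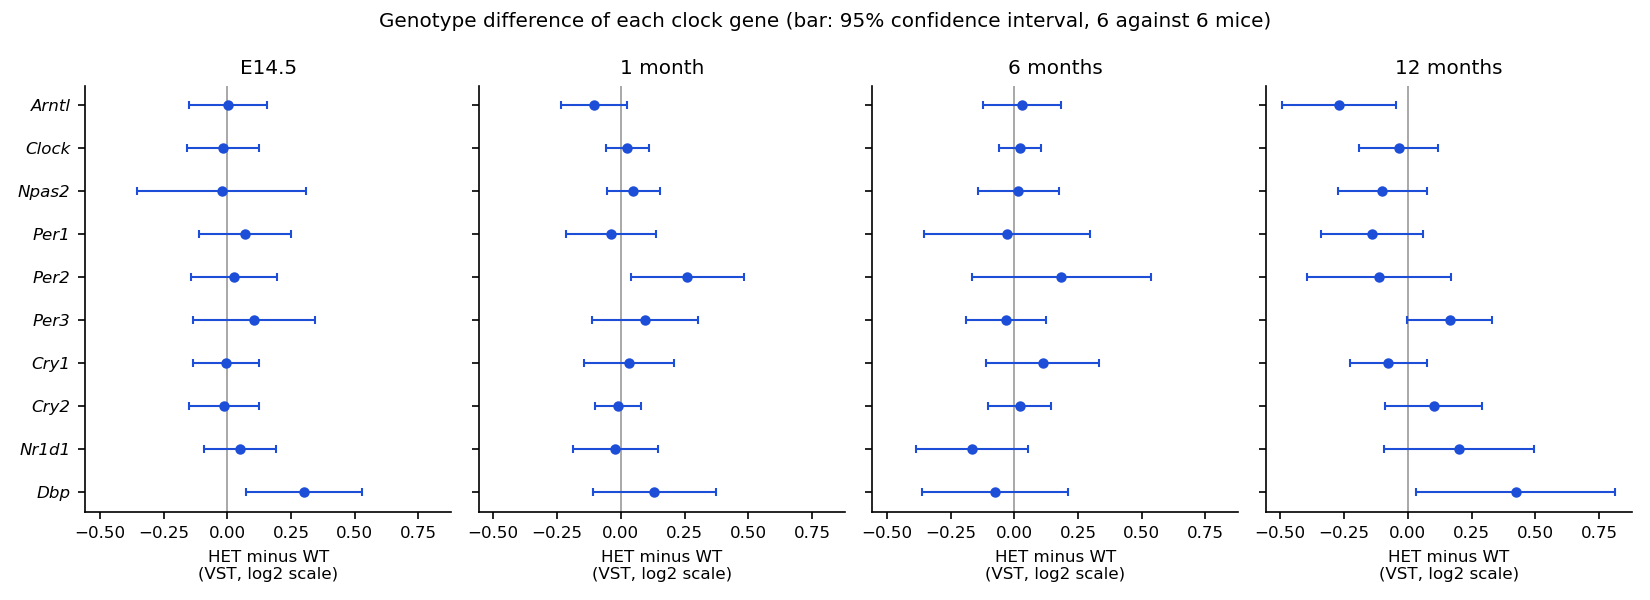
HET minus WT difference (log2 VST units, horizontal axes) of each of the 10 clock genes at the 4 ages, with its 95% confidence interval from the limma fit. The points lie on both sides of 0 at every age, and 4 intervals leave out 0: Dbp at E14.5, Per2 at 1 month, and Arntl and Dbp at 12 months.

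The 4 differences that reached an unadjusted p under 0.05 were small beside the developmental change. At E14.5, Dbp ranged from 6.48 to 6.79 in WT (median 6.67) and from 6.59 to 7.19 in HET embryos (median 7.0). The groups overlapped, and the difference was 0.30 ± 0.11 (95% confidence interval 0.07 to 0.53, limma adjusted p = 0.982). With the mean of the midbrain, hindbrain and spinal cord markers as a covariate it was 0.28. At 1 month, Per2 ranged from 10.45 to 10.74 in WT (median 10.58) and from 10.46 to 11.17 in HET mice (median 10.98). The difference was 0.26 ± 0.10 (exact permutation p = 0.0714, limma adjusted p = 0.478). The mean of 9 glucocorticoid-induced genes was also higher in HET mice at 1 month, by 0.21 (exact permutation p = 0.0303, unadjusted), and its part in the Per2 difference was not tested. Other gene lists were compared between genotypes at every age, and this p does not allow for them.

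At 12 months, Arntl was lower and Dbp higher in HET mice on average. Arntl ranged from 9.71 to 10.33 in WT (median 9.84) and from 9.52 to 9.82 in HET mice (median 9.73), a difference of -0.27 ± 0.11 (exact permutation p = 0.0498, two-sided; limma adjusted p = 0.351). In a single fit of all 48 samples the adjusted p was 0.0996, just past the threshold. Dbp ranged from 9.81 to 10.88 in WT (median 10.04) and from 10.15 to 11.01 in HET mice (median 10.73), a difference of 0.42 ± 0.19 (exact permutation p = 0.115; limma adjusted p = 0.393). WT and HET mice overlapped in both genes. The smallest p that 6 against 6 mice can give is 0.0022.

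Whether the genotype difference itself changed with age was tested as an interaction, and 0 of the 10 genes were called for any step between ages. The share of all genes called was 0% from E14.5 to 1 month, 0% from 1 to 6 months and 0.0578% from 6 to 12 months. At an unadjusted p under 0.05 there were 0, 0 and 3 members, against 4.60%, 3.36% and 8.68% of all genes. The 3 were Arntl, whose difference moved by -0.30 from 6 to 12 months (limma adjusted p = 0.457), Nr1d1, by 0.37 (adjusted p = 0.516), and Dbp, by 0.50 (adjusted p = 0.526).

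Individual mice differed more in some clock genes than in others. Over the 36 postnatal mice, the SD within groups was 0.32 for Dbp, 0.30 for Per2, 0.25 for Per1 and 0.24 for Nr1d1, against a median of 0.11 over the 10034 genes with a mean of at least 8. Dbp varied more than 99.0% of those genes and Per2 more than 98.6%. Clock, by contrast, had an SD of 0.10, more than 37.9% of them. In embryos the SD was lower than over the postnatal mice for every member but Clock, Npas2 and Per3. Nr1d1 had an SD of 0.09 and Dbp of 0.18. These were above 14% and 47.7% of all genes tested in embryos. On the same measure, among all genes tested, Nr1d1 and Dbp were above 70.5% and 81.3% over the postnatal mice. Dbp and Nr1d1 lay nearer the floor in embryos, where SDs on this scale depend on the level, so no test was made between the ages.

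**Figure D3:**
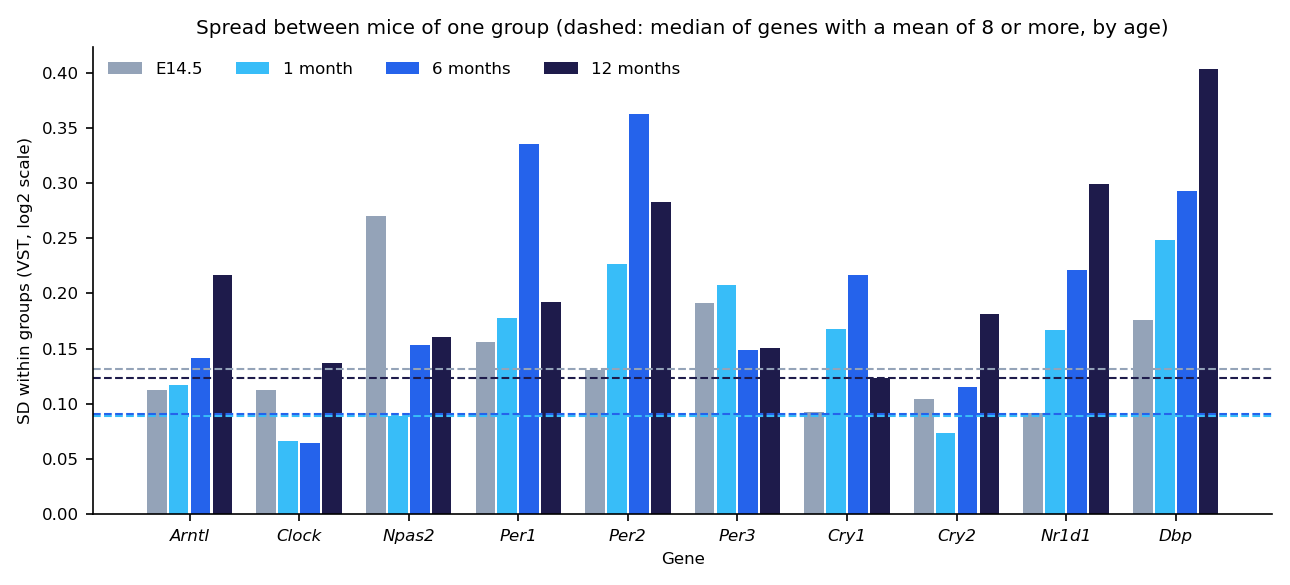
SD between mice of the same age and genotype (log2 VST units, vertical axis) for each of the 10 clock genes, with 1 bar per age and a dashed line per age at the median over genes with a mean of 8 or more. The bars of Dbp, Per2 and Nr1d1 stand above the line of their age at 1, 6 and 12 months, and those of Clock lie near or under it.

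Dbp was set against every other gene, mouse by mouse. Group means were removed from every gene, and the 17256 genes tested were ordered by their Pearson r to Dbp over the 36 postnatal mice. The 5 genes most like Dbp were Ciart (r = 0.82), Bhlhe41 (0.79), Rps6ka4 (0.77), Epha8 (0.74) and Hrh3 (0.74). The 5 most opposed were Nfil3 (r = -0.79), Asb4 (-0.76), Ears2 (-0.75), Lman2l (-0.74) and H2afy (-0.73). Ciart and Bhlhe41 are clock repressors and Nfil3 is the D-box repressor named above.

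Of the 29 other clock genes considered here (9 members and 20 further genes), 7 were among the 100 genes most like Dbp or the 100 most opposed to it, places that hold 1.16% of all genes ranked. They were Ciart, Bhlhe41, Nr1d2, Tef and Nr1d1 on the one side and Nfil3 and Arntl on the other. These are descriptions of 1 set of mice, in which genes share libraries and depth. Without the WT mice of 12 months, described below, 9 of the 29 were at those places, with Bhlhe41 first (r = 0.85) and Ciart second (0.80). In the 12 embryos r to Dbp was 0.38 for Ciart, 0.27 for Bhlhe41 and -0.16 for Nfil3, with the same signs and nearer 0. Other genes changed sign. Per3 and Usp2, which were among the 9, had r = -0.14 and -0.48 in embryos, and Epha8 and Hrh3 had -0.12 and -0.17. These differences from the postnatal mice were not tested.

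The loop pairs a high Dbp with a low Arntl, and this was tested over mice. The relation was 1 of 75 computed, each on values with group means removed, with p-values from 100000 permutations within groups and judged at an adjusted p below 0.05. Over the 36 postnatal mice, Pearson r between Arntl and Dbp was -0.66 (permutation p = 0.00164, adjusted p = 0.0410) and Spearman rho was -0.53 (permutation p = 0.00484, adjusted p = 0.125). Pearson r passed the threshold and rho did not. Leaving out the 2 mice farthest from the median of Arntl gave r = -0.60 (permutation p = 0.00224), but the adjusted p was then 0.107, so the call was lost. The call was also lost after centring on the median gene (r = -0.62, adjusted permutation p = 0.0637). In WT or HET mice alone and in either set of replicates it was lost too (r from -0.73 to -0.60, 18 mice each). There the adjusted permutation p was 0.11 to 0.268 over the 15 relations of each set. Without the WT mice of 12 months r was -0.59, with an adjusted permutation p of 0.0275 over the 15 relations of that set. Within ages r was -0.70 at 1 month and -0.52 at 6 months, neither past the threshold (adjusted permutation p = 0.255 and 0.448). The relation over the 12 mice of 12 months was not past it either (adjusted permutation p = 0.255), and its r is not given because the WT mice fell into separate sets. In HET mice of 12 months alone it was -0.61 (exact permutation p = 0.176, n = 6). In the 12 embryos r was -0.001 (adjusted permutation p = 0.999). Nr1d1, which the loop also pairs with a low Arntl, did not show this. Its r to Arntl was -0.005 over the 36 postnatal mice (adjusted permutation p = 0.999). At 1 month and 6 months that r was -0.27 and 0.15 (adjusted permutation p = 0.540 and 0.815).

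**Figure D4:**
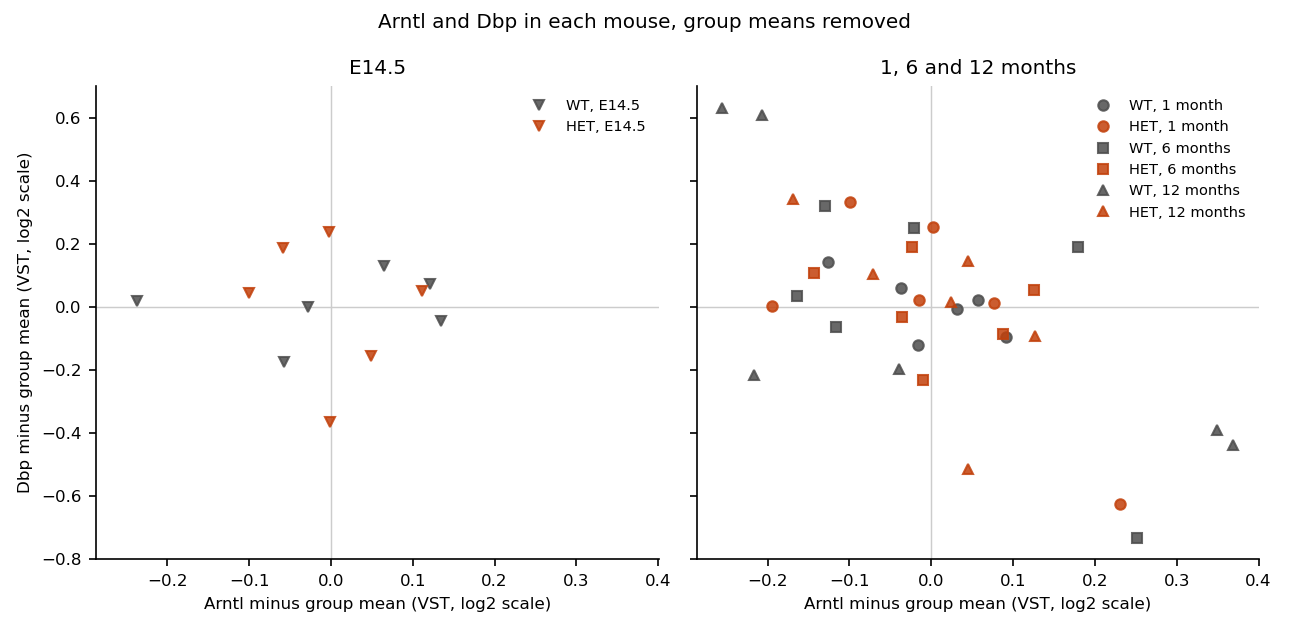
Arntl (horizontal axis) against Dbp (vertical axis), both as the difference of each mouse from its group mean in log2 VST units, with embryos and postnatal mice in separate panels. Postnatal mice slope downward with r = -0.66, and embryos show no slope, with r = -0.001.

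The genes most like Arntl itself were mostly not clock genes. The 5 with the highest r over the 36 postnatal mice were Ap3b1 (0.75), Clock (0.71), Ubqln1 (0.71), Enc1 (0.71) and Sbno1 (0.70). The 5 with the lowest were Xrcc6 (-0.75), Cdk5rap3 (-0.71), Hmgb3 (-0.71), Poldip2 (-0.71) and Snapin (-0.69), and Dbp was in eighth place. Of the 29 other clock genes, 3 (Clock, Nfil3 and Dbp) were among the 100 genes of either end, which hold 1.16% of all genes. Without the WT mice of 12 months there were 5, all opposed to Arntl, with Dbp, Ciart, Nr1d2 and Per3 among them. Clock, Ubqln1, Sbno1, Poldip2 and Snapin then lay outside the 100 places of their end, and the other named genes stayed within. Arntl and Clock together were past the threshold (Pearson r = 0.71, permutation p = 0.00075, adjusted p = 0.0281; Spearman rho = 0.60, adjusted p = 0.112), with r = 0.55 without the 2 farthest mice. The relation rested on the WT mice of 12 months, without which r was 0.39 (adjusted permutation p = 0.122). It was 0.87 in WT and 0.16 in HET mice, a difference that was not tested. Per3, whose promoter window held the D-boxes, had r = -0.40 to Arntl (adjusted permutation p = 0.0886), and -0.55 without the WT mice of 12 months (adjusted permutation p = 0.0183).

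The WT mice of 12 months were not alike. Dbp was 10.86 and 10.88 in replicates 3 and 4 and between 9.81 and 10.05 in the other 4. Arntl was highest in replicates 2 and 5, at 10.31 and 10.33, and between 9.71 and 9.92 in the other 4. Nr1d1 was 12.00 and 11.94 in replicates 3 and 4 and 11.02 to 11.71 in the others. Ciart followed Dbp, at 8.62 and 8.57 in replicates 3 and 4 against 7.50 to 7.98, and Nfil3 was lower in those mice, at 7.72 and 8.09 against 8.22 to 9.04.

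The same mice also differed from the other WT mice outside the clock. The mean of the cold-induced genes Cirbp and Rbm3 was 10.46 and 10.41 in WT replicates 3 and 4 and 9.29 to 9.48 in the other 4. In HET mice it was 9.94 to 10.48 (HET minus WT 0.49, exact permutation p = 0.0606, unadjusted). The mean of the glucocorticoid-induced genes was 8.92 and 9.16 against 9.80 to 9.99. In HET mice that mean was 8.99 to 9.82 (HET minus WT -0.39, exact permutation p = 0.145, unadjusted). In HET mice of 12 months, Dbp was lowest in replicate 3, at 10.15, and 10.58 to 11.01 in the other 5. Because the WT mice fell into these sets, no r over the 12 mice of this age is given, although the relations of that age were computed and are among the 75. The part of the cold-induced and glucocorticoid-induced genes in the genotype differences of Arntl and Dbp was not tested.

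**Figure D5:**
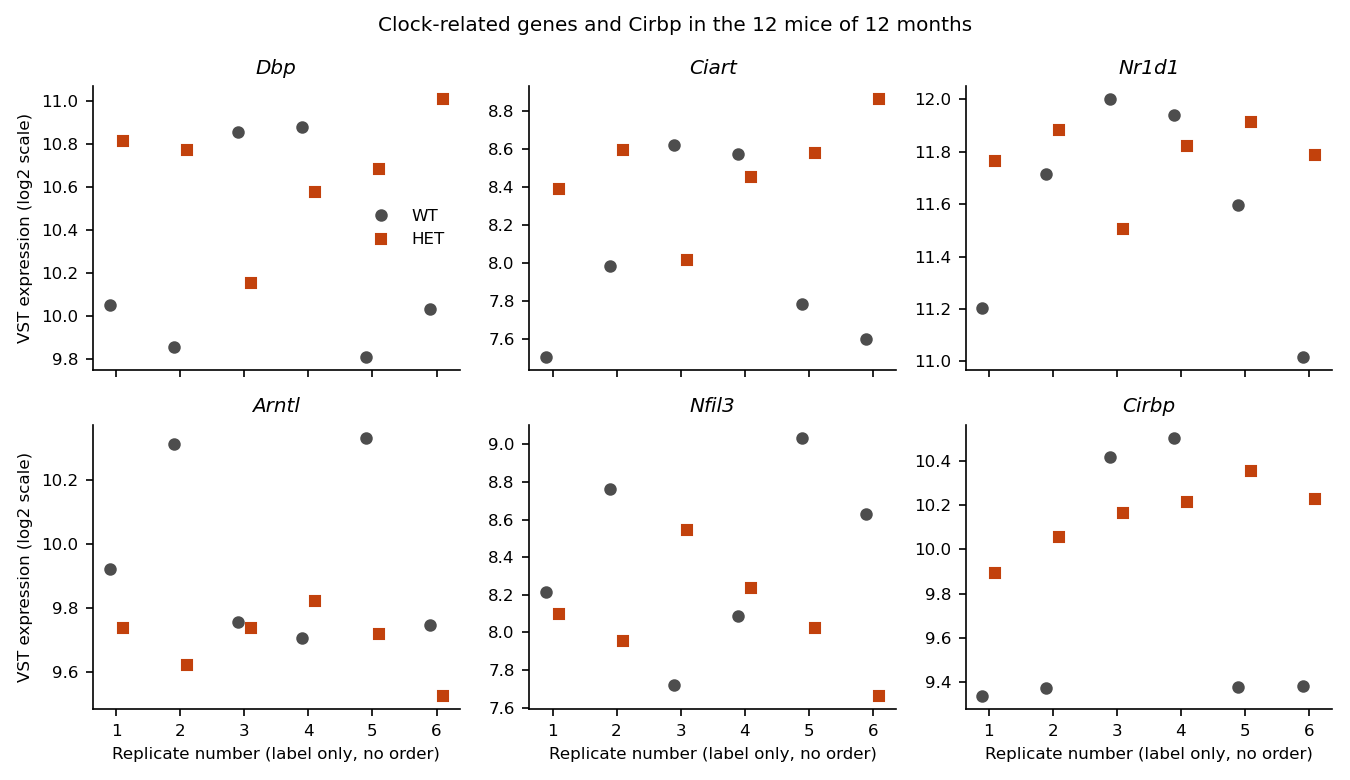
VST expression (log2 scale, vertical axes) of 5 clock genes and the cold-induced gene Cirbp in each of the 12 mice of 12 months, with the replicate number, which has no order, on the horizontal axis. In WT replicates 3 and 4, Dbp lies at 10.86 and 10.88, within the HET range of 10.15 to 11.01 and above all HET mice but the highest. In the other 4 WT mice it lies between 9.81 and 10.05.

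Per1 and Per2, the members that respond to stimuli, were compared with genes induced by neuronal activity, glucocorticoids and cold. At 6 months, Per1 rose and fell with the mean of 11 activity-induced genes such as Fos and Arc over 12 mice (Pearson r = 0.86, permutation p = 0.00074, adjusted p = 0.0281; Spearman rho = 0.76, adjusted p = 0.137). Without the 2 mice farthest from the median of Per1, r was 0.62 (permutation p = 0.0628), so the relation rested in part on those mice. HET replicate 5 held the lowest Per1 of that age, 11.06. At the other ages the relation was not past the threshold: r was 0.48 in embryos and 0.55 at 1 month (adjusted permutation p = 0.388 and 0.332). In HET mice of 12 months alone it had the other sign, r = -0.75 (exact permutation p = 0.108, n = 6), and over all 12 mice of that age the adjusted permutation p was 0.586. Over all 36 postnatal mice r was 0.52 (adjusted permutation p = 0.0862), and 0.27 without the 2 farthest. Per2 and the glucocorticoid-induced genes had r = 0.56 over the postnatal mice (adjusted permutation p = 0.0598), and 0.70 without the WT mice of 12 months (adjusted permutation p = 0.0133). Of the 75 relations, 3 were past the threshold: Arntl with Dbp, Arntl with Clock, and Per1 with the activity-induced genes at 6 months.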

How the data were processed

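RNA-seq of the cortex of 48 mice (E14.5, 1, 6 and 12 months, WT and HET, n = 6 each) was analysed from the table deposited by the authors, which holds VST values of 24444 genes on a log2 scale. Per the submitters' notes and the methods, the authors removed low-quality reads and adapters, aligned to mm9 with STAR 2.5.2b, quantified them with Salmon 0.11.3 and transformed them with DESeq2, correcting for batch effects. For each gene the means of replicates 1 to 3 and of replicates 4 to 6 were equal to within 3.38e-14, which means that any offset between those replicate sets was taken out before deposit, and the residual degrees of freedom of the tests do not allow for it. The value 2.1433 was the floor (15.7% of values). The library kit is named differently in the labels (TruSeq) and the methods (KAPA). Depth (13611052 to 61621924 reads) is known per library and not per gene, so precision was judged from the spread between 6 mice.

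The 10 genes and all lists were chosen with earlier results of these data known. Genes with a mean at least 0.5 above the floor were fitted with limma 3.58.1 (R 4.3.3, intensity trend), per age for genotype, per genotype for age steps and over all 48 samples for interactions, with Benjamini-Hochberg adjustment over all genes tested, an adjusted p below 0.1 and two-sided tests. Single genes were also tested with exact permutation tests, and mice were related by correlations of values with group means removed (scipy 1.17.1). The fits were tested on simulated data. Named genes were the 10 members, Nr1d2, Ciart, Tef and Bhlhe41 with any further clock gene called for genotype, the 5 genes most like and most opposed to Arntl and Dbp, and Chd8. The values of 1 further clock gene are not reported here. Promoter windows came from RefSeq (GRCm38.p6). Alternatives were the replicate block, no filter and a filter at 1.5, no trend, quantile normalization, centring on the median gene, read depth, the set of replicates or marker means as a covariate, a threshold of 0.05, a single fit of 48 samples and leaving out each mouse. Leaving out the WT mice of 12 months was added after seeing the data.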

Additional observations from a re-analysis of the deposited data

Results flagged for a closer look

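In 5 of the 80 combinations of clock gene and group, 1 mouse lay far from the other 5, with a gap to its nearest neighbour above Dixon's limit for groups of 6. About 4 of 80 are expected by chance at this limit. Dbp had 2 of the 5. In WT mice of 6 months, Dbp was 9.94 in the lowest mouse and 10.61 in the next. In HET mice of 1 month it was 9.97 in the lowest mouse and 10.60 in the next. Per1, a light and activity responsive repressor, was 11.06 in the lowest HET mouse of 6 months and 11.74 in the next. Cry1 was 9.43 in the highest HET mouse of 1 month and 9.23 in the next. Nr1d1 was 11.50 in the lowest HET mouse of 12 months and 11.76 in the next.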

How the results depend on the processing

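The 9 increases and the fall of Cry1 between E14.5 and 1 month kept their direction and their call under every alternative run, in both genotypes. Over all comparisons, 2460 values of the 10 genes were recomputed under alternatives. Of these, 2376 kept their sign, and 84 had the other sign, 0 of them past the threshold in either fit. Another 29 were no longer past the threshold and 14 were newly past it. The cause of these changes was not tested. Depth per gene is unknown, so a difference smaller than the spread between 6 mice could not be seen.

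At no age did every same-numbered pair of WT and HET mice correlate over 0.1, so the numbers were not taken to pair the mice. Embryos of the same number did go together in part, with a mean correlation of 0.23 against -0.05 for other numbers, 4 of 6 pairs over 0.1, and 4 WT and 3 HET embryos correlated best with their own number. The mean was 0.02, 0.05 and -0.03 at 1, 6 and 12 months. With the replicate number as a block, 0 members were called for genotype at any age. From 1 to 6 months the block gave 1 member lower in WT mice, where 0 had been, and 2 higher in HET mice, where 1 had been. Over all genes the block gave 2, 13, 30 and 2 calls for genotype at the 4 ages against 1, 24, 16 and 8.

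For the 1 to 6 month step, no filter on low values gave 0 members higher in WT and 0 higher and 0 lower in HET mice, and for HET mice no trend, a threshold of 0.05 and a single fit of all samples also gave 0 and 0. Quantile normalization, the stricter filter and read depth as a covariate gave 2 higher in HET mice. From 6 to 12 months in HET mice, no filter, no trend and the threshold of 0.05 gave 0 lower, where 1 had been. A single fit of all 48 samples gave 1 member lower for genotype at 12 months (Arntl), and 120 and 520 calls over all genes at E14.5 and 12 months. With 1 mouse left out, the count from 1 to 6 months ran from 0 to 2 higher and 0 to 1 lower in either genotype, and from 6 to 12 months in HET mice from 0 to 3 lower.

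For Arntl and Dbp over postnatal mice, r was no longer past the adjusted threshold without the 2 farthest mice (-0.60), centred on the median gene (-0.62), in WT mice only (-0.69), in HET mice only (-0.60), in replicates 1 to 3 (-0.62) and in replicates 4 to 6 (-0.73), nor was Spearman rho (-0.53). In embryos, r turned positive without the 2 farthest mice (0.078), after quantile normalization (0.065) and after centring (0.012).

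Small differences that changed sign were as follows. For genotype at E14.5, quantile normalization gave -0.0026 for Arntl and 0.016 for Npas2, centring -0.00089 for Arntl, read depth 0.0086 for Cry1, and the midbrain, hindbrain and spinal cord marker mean 0.012 for Clock, 0.020 for Cry1, 0.038 for Cry2 and -0.0017 for Nr1d1. With read depth, Per1 was 0.066 for genotype at 6 months and -0.037 from 1 to 6 months in WT mice. Quantile normalization gave 0.0043 for Dbp from 1 to 6 months in HET mice. Centring gave -0.00053 for Per3 from 6 to 12 months in HET mice, 0.0079 for Per3 in the interaction of 1 month and E14.5, and -0.0069 for Per1 in that of 6 months and 1 month.

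With 1 mouse left out, the differences that changed sign ranged as follows. For genotype at E14.5, they ran from -0.043 to 0.031 for Arntl, -0.046 to 0.029 for Clock, -0.12 to 0.065 for Npas2, -0.016 to 0.077 for Per2, -0.040 to 0.014 for Cry1 and -0.057 to 0.010 for Cry2. At 1 month they ran from -0.10 to 0.018 for Per1, -0.027 to 0.073 for Cry1, -0.036 to 0.010 for Cry2 and -0.068 to 0.024 for Nr1d1. At 6 months they ran from -0.0020 to 0.081 for Arntl, -0.026 to 0.067 for Npas2, -0.11 to 0.12 for Per1, -0.074 to 0.017 for Per3 and -0.0063 to 0.058 for Cry2, and at 12 months from -0.074 to 0.019 for Clock. In WT mice they ran from -0.042 to 0.11 for Per1 and -0.14 to 0.046 for Per2 from 1 to 6 months, and from -0.092 to 0.0011 for Clock and -0.091 to 0.038 for Cry1 from 6 to 12 months. In HET mice they ran from -0.0051 to 0.080 for Arntl, -0.024 to 0.19 for Per1, -0.18 to 0.0057 for Per2 and -0.13 to 0.066 for Dbp from 1 to 6 months, and from -0.055 to 0.052 for Per3 from 6 to 12 months.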

Other observations

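Among the further clock genes, which were not called for genotype at any age, the differences of 12 months leaned to one side. The HET minus WT difference was positive for 16 of the 20 genes at 12 months, with a median of 0.07, and for 9, 10 and 9 of them at E14.5, 1 month and 6 months. The median of all genes at 12 months was 0.005. The 10 members did not lean that way, with 4 positive, 6 negative and a median of -0.06. An unadjusted p under 0.05 at 12 months was found for 3 of the 20 genes and 11.6% of all genes. Among the 3 were Ciart (0.47 ± 0.19, limma adjusted p = 0.351) and Usp2 (0.22 ± 0.08, limma adjusted p = 0.328), the latter named after its value was seen. Genes of one loop are not independent of each other, and the WT mice of 12 months were the ones that fell into sets. In embryos, Per1 ran against the cold-induced genes Cirbp and Rbm3 (Pearson r = -0.81 over 12 mice, adjusted permutation p = 0.0598, and -0.59 without the 2 farthest mice), which did not pass the threshold.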
